A study of Mus musculus with 12 samples.

Results

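Fcer2a, Cr2, Cd38, Cd55, Cd1d1, Cd24a and Cd93 are 7 genes for surface proteins by which naive follicular B cells and their immature precursors are recognized. They were taken by symbol from the 56941 genes of the count table, and all 7 were among the 15148 genes with enough counts to be tested. Their RNA was measured by bulk RNAseq in B cells sorted from the mouse peritoneal cavity (PerC). B2, the conventional B cells, were sorted as IgD+IgM+, and memory B cells (MemB) as IgD-IgM-. KI mice carry Cd21-Cre and an allele in the Rosa26 locus with a stop cassette (LSL) ahead of a truncated, gain-of-function GPR34 that is followed by an IRES and GFP, and Cre removes the stop in mature B cells. Control mice were littermates of KI mice, and the labels do not say whether they carried the Cre or the LSL allele. The labels name no treatment, age or strain. There were 3 biological replicates of each genotype and cell type, 12 libraries in all. As a limit for these genes, the Cre is driven from the Cd21 promoter, and CD21 is a product of Cr2, 1 of the 7 genes. The gate stated for the RNAseq sort used IgD and IgM but not GFP, so KI libraries can hold cells that had not switched the allele on.

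CD23, from Fcer2a, is the low-affinity receptor for IgE, and CD21, from Cr2, binds fragments of complement C3 on antigen. Both are high on mature B2 cells, and CD21 is higher still on marginal zone B cells. CD55, or decay-accelerating factor, breaks up the C3 convertases of complement on the cell's own membrane. CD38 is an ectoenzyme that degrades NAD and stays on mouse naive and memory B cells, while germinal center B cells lose it. CD1d presents lipids to NKT cells. CD24, a small glycosylated protein anchored by a lipid, and CD93, which is also called AA4.1, are high on immature B cells, and CD93 is lost as B cells mature.

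A library held 29895031 to 39732039 counts, 29.3% to 38.3% of them in ribosomal RNA genes, and levels are given as CPM, counts scaled to library size after TMM normalization. Gpr34, which checks the genotype, was at 100.3 to 112.6 CPM in KI B2 and 3.42 to 6.87 in control B2, and at 132.4 to 168.4 in KI MemB and 18.8 to 30.9 in control MemB. The transcripts of the gate followed the sort labels in part. Ighd, which encodes the IgD heavy chain, was at 1297 CPM or more in every B2 library and at 251.3 or less in every MemB library. Ighm, which encodes that of IgM, was at 2906 to 4341 CPM in B2 and 297.4 to 566.4 in KI MemB, but at 2014 to 2688 in control MemB, whose label is IgM-. Replicate 3 of all 4 groups had 91355 or more counts of Xist and the other 8 libraries 2175 or fewer, so the replicates differ in sex. For calls that were lost with replicates 1 and 2 only, the values from those are given beside the result.

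**Figure D1:**
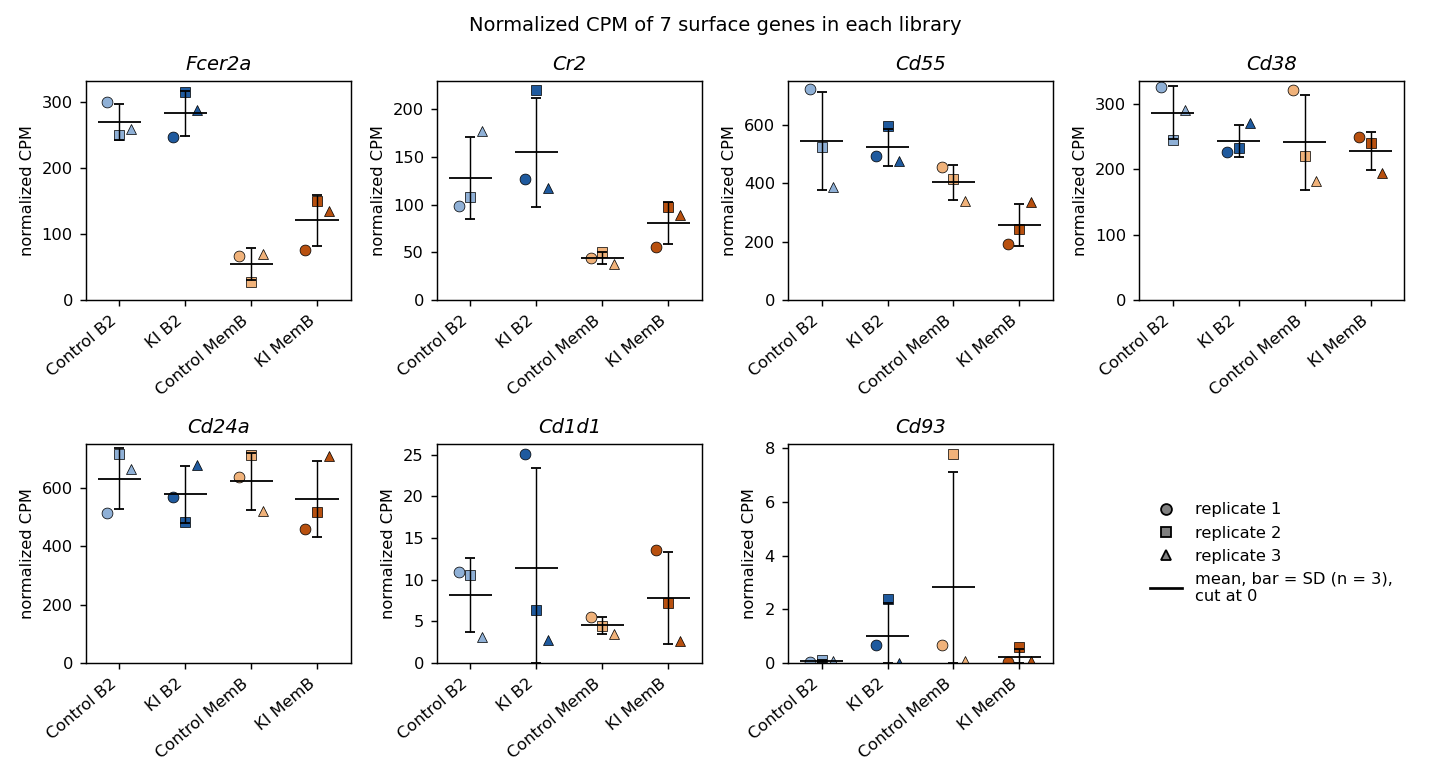
Each panel plots the normalized CPM of 1 gene (vertical axis, linear from 0) in the 12 libraries by group, with a symbol for each replicate number, the group mean as a line and the SD as a bar (n = 3, lower end cut at 0). Fcer2a and Cr2 are lower in all MemB libraries than in all B2 libraries, and the 4 groups overlap for Cd38 and Cd24a.

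The 7 genes covered a wide range of levels. Per kilobase of annotated exon, the mean over the 12 libraries was 231.7 CPM for Cd24a, 73.0 for Cd55, 58.7 for Fcer2a, 56.1 for Cd38, 12.4 for Cr2, 3.06 for Cd1d1 and 0.0850 for Cd93. The order of these means was the same with the length of the longest transcript. The order differed between groups. Per kilobase of annotated exon, Fcer2a was below Cd38 in control MemB (17.6 against 54.2 CPM) and in KI MemB (39.0 against 51.3). By the same measure, Fcer2a was above Cd55 in KI B2 (91.2 against 88.3), and Cd38 was above Cd55 (43.4) in KI MemB. These reversals against Cd55 were not seen with the longest transcript. Thus the mean level per kilobase was higher for the IgE receptor than for the complement receptor, and that of Cd93, the marker of immature cells, was close to 0.

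Fcer2a (ENSMUSG00000005540, GRCm39 chr8:3731737-3744183, minus strand) set MemB apart from B2 most clearly among the 7. In control B2, the 3 libraries had 300.3, 249.3 and 258.9 CPM (mean 269.5 ± 27.1, SD, n = 3). KI B2 had 246.8, 314.2 and 287.5 CPM (282.8 ± 34.0). The control MemB libraries had 67.0, 26.9 and 69.8 CPM (54.55 ± 24.0), and the KI MemB libraries had 76.7, 150.5 and 135.2 CPM (120.8 ± 39.0). The 2 B2 groups overlapped at the top of the order, KI MemB came below them, and control MemB was lowest, with no library shared between these 3 levels. As a share of the control B2 mean, Fcer2a stood at 104.9% in KI B2, 44.8% in KI MemB and 20.2% in control MemB. Between 918 and 12841 counts lie behind these values, so the counting error of reads is small beside the spread of replicates. Reads were amplified without molecular identifiers, so the error of sampling molecules is not known.

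Averaged over the genotypes, Fcer2a was 3.4-fold lower in MemB than in B2, a log2 fold change of -1.77 (SE 0.22, adjusted p = 4.29e-06 by the quasi-likelihood test of edgeR, Benjamini-Hochberg adjusted). A DEG is a gene with an adjusted p under 0.05 whose log2 fold change exceeds 1 in size, and Fcer2a was a DEG here with each library left out in turn (-1.87 to -1.60). In control mice the fall was by 2.30 on the log2 scale (SE 0.31, adjusted p = 6.86e-05 by the same edgeR test). In KI mice the log2 fold change was -1.23 (SE 0.30, adjusted p = 0.0656 by edgeR), with all 3 MemB libraries below all 3 B2 libraries but without a call. That comparison passed without the filter on low counts (adjusted p = 0.00703), with DESeq2 (0.0317) and with genotype and replicate number together as a block (0.0147), although the labels do not say that libraries of a number come from the same mouse, and when control MemB replicate 2 (0.0175) or replicate 3 (0.046) was left out of edgeR's fit.

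The same libraries give the comparison of genotypes. In MemB, Fcer2a had a log2 fold change of 1.15 in KI against control (SE 0.30, unadjusted p = 0.000606, adjusted p = 0.116 by edgeR), with 3 of 3 KI libraries above all control libraries. It was not called at the adjusted threshold by edgeR, whereas DESeq2 (1.16, adjusted p = 0.0421) and edgeR without the filter on low counts (1.15, adjusted p = 0.0222) called it. In B2 the log2 fold change was 0.07, with a 95% interval from -0.54 to 0.67 (adjusted p = 0.999 by edgeR). The difference between the genotype effects in MemB and in B2 was 1.08 (SE 0.42, unadjusted p = 0.0156, adjusted p = 0.462 by edgeR), which did not pass. The contrasts of KI with control MemB and of MemB with B2 in control mice share the control MemB libraries, so the low level there enters both.

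Cr2 (ENSMUSG00000026616, GRCm39 chr1:194819119-194859091, minus strand), the gene of CD21, followed the same order of groups. The control B2 libraries had 98.5, 108.5 and 177.2 CPM (128.1 ± 42.8, SD, n = 3). KI B2 had 126.6, 220.1 and 117.2 CPM (154.6 ± 56.9). In control MemB, Cr2 was at 44.5, 50.4 and 38.1 CPM (44.4 ± 6.16), and in KI MemB at 56.2, 97.5 and 89.4 CPM (81.0 ± 21.9). Each B2 group had a single high library, control replicate 3 and KI replicate 2, and the B2 groups overlapped. The KI MemB libraries all lay above those of control MemB, and the highest of them was just below the lowest B2 library.

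Cr2 fell in MemB by 1.23 on the log2 scale over both genotypes, which is 2.35-fold (SE 0.24, adjusted p = 0.00339 by edgeR). This held with each library left out (-1.32 to -1.06), but not with replicates 1 and 2 only (-1.14, adjusted p = 0.0767 by edgeR). In control mice Cr2 fell by 1.53 (SE 0.34, adjusted p = 0.0405 by edgeR), and leaving out any of the 6 libraries compared lost the call (adjusted p from 0.0549 without control B2 replicate 1 to 0.351 without control B2 replicate 3). It was -1.11 with replicates 1 and 2 only (adjusted p = 0.5 by edgeR). In KI mice the log2 fold change of MemB against B2 was -0.93 (SE 0.34, adjusted p = 0.332 by edgeR), again with no library shared. KI against control gave 0.87 in MemB (SE 0.34, unadjusted p = 0.0148, adjusted p = 0.349 by edgeR), with 3 of 3 KI libraries higher. In B2 it gave 0.27, with a 95% interval from -0.41 to 0.95, and 0.76 with replicates 1 and 2 only (adjusted p = 0.874 by edgeR). The difference between these effects was 0.60 (SE 0.47, adjusted p = 0.811 by edgeR), and it was -0.05 with replicates 1 and 2 only. Whether transcripts of the Cd21-Cre contribute counts to Cr2 was not tested.

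**Figure D2:**
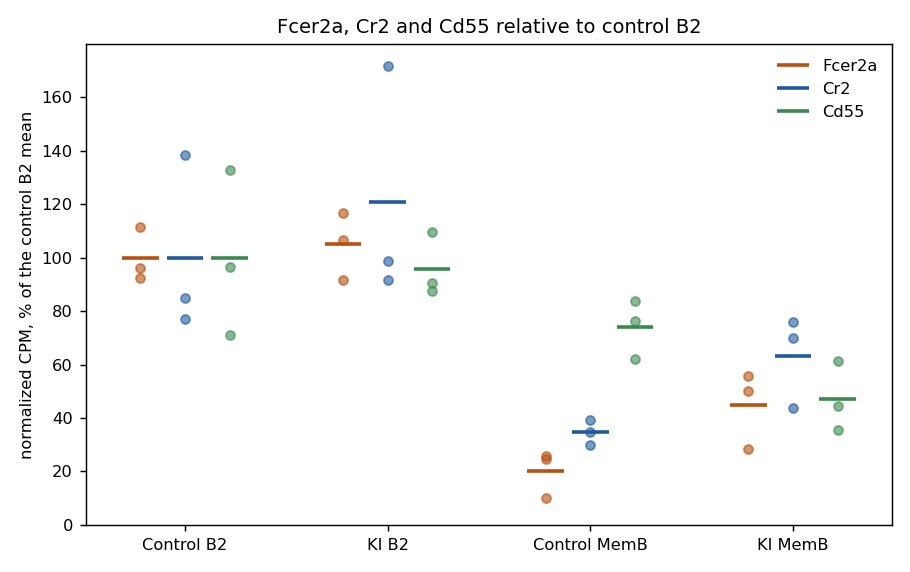
Points give the normalized CPM of Fcer2a, Cr2 and Cd55 in each library as a percentage of that gene's control B2 mean (vertical axis, linear from 0), and short lines give the means of 3 libraries. In MemB, KI libraries are higher than control libraries for Fcer2a and Cr2 and lower for Cd55.

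Since Fcer2a and Cr2 had the same order of groups, the sequences before their start sites are shown. Both are RefSeq promoter sequence (table of GRCm38.p6, read at its exact match in GRCm39), on the minus strand, 5′ to 3′, ending at the base before the outermost annotated start. The capitals mark GTGGGAA, the core letters bound by RBPJ, the DNA-binding partner of Notch.
Cr2 (chr1:194859092-194859277): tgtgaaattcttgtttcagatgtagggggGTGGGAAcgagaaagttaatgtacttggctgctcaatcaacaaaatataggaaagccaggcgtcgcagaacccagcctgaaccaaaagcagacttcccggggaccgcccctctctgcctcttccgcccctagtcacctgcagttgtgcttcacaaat
Fcer2a (chr8:3744184-3744424): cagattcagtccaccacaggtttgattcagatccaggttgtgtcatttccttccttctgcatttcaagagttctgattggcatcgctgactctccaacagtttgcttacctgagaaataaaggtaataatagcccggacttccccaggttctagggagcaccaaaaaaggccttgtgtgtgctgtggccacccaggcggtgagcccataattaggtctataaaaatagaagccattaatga

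Within the 250 bases before the RefSeq start, searched on both strands, Cr2 held GTGGGAA at bases 221 to 215 before the start and Cd38 held it at bases 45 to 39. The windows of Cd38 and Cd55 lie wholly within the annotated gene, which starts further upstream, whereas the match of Cr2 lies outside it. Fcer2a and Cd55 did not hold these letters. They occur in 5.42% of the 32851 promoters of that length in the table. The octamer ATGCAAAT, bound by factors of the OCT family and found in 1.6% of these promoters, was in none of the 4 windows. Entries for Cd1d1, Cd24a and Cd93 were not used here. These are matches of letters only.

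Cd55 (ENSMUSG00000026399, GRCm39 chr1:130366469-130390926, minus strand), the complement regulator, had another pattern. In control B2 it was at 721.8, 524.6 and 385.8 CPM (544.1 ± 169, SD, n = 3) and in KI B2 at 493.4, 595.4 and 477.2 CPM (522 ± 64.0). Control MemB had 454.9, 414.8 and 337.7 CPM (402.5 ± 59.6), and KI MemB had 192.4, 242 and 334.7 CPM (256.4 ± 72.2). Here KI MemB was the lowest group, every 1 of its libraries lay below every other library, and control MemB overlapped control B2.

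In KI mice Cd55 fell in MemB against B2 by 1.03 on the log2 scale, 2.04-fold (SE 0.23, adjusted p = 0.0263 by edgeR). The call was lost without KI B2 replicate 1 (-1.06, adjusted p = 0.0749), replicate 2 (-0.92, 0.194) or replicate 3 (-1.09, 0.0518), and without KI MemB replicate 1 (-0.85, 0.232) or replicate 2 (-0.98, 0.0992), all by edgeR. In control mice the log2 fold change was -0.43 (SE 0.23, adjusted p = 0.499 by edgeR). Averaged over the genotypes it was -0.73 (SE 0.16, adjusted p = 0.0113 by edgeR), past the adjusted p, as 1.36% of all genes were, but within the fold limit. With each library left out it was -0.85 to -0.60, with an adjusted p of 0.00278 to 0.067 by edgeR. The adjusted p was thus not passed in every such fit. KI against control gave -0.65 in MemB (SE 0.23, unadjusted p = 0.00716, adjusted p = 0.32 by edgeR), with 3 of 3 KI libraries lower, and -0.06 in B2 (95% interval -0.52 to 0.40). The difference between those effects was -0.59 (SE 0.32, unadjusted p = 0.0732, adjusted p = 0.653 by edgeR). Of the 50-base words in Cd55 transcripts, 15.8% occur in other genes, mainly in the antisense lncRNA Gm16083 and in the near copy Cd55b. A read from the words shared with Cd55b cannot be placed by itself, though its mate at the other end may place it. For those shared with Gm16083 a stranded count would also do so, and the strand setting is not given. Cd55b itself was at 0.184 CPM or less in every library.

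**Figure D3:**
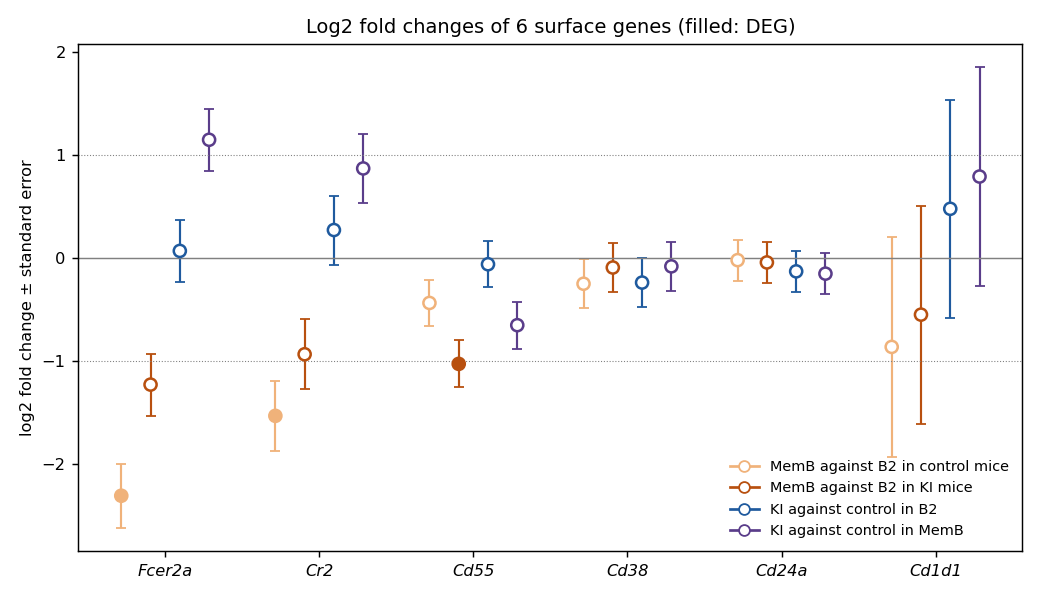
Log2 fold changes (vertical axis) of 6 genes in 4 comparisons of group means (n = 3 each), with the standard error as a bar. Filled points are DEGs and dotted lines mark the fold limit. The lowest points are those of Fcer2a and Cr2 for MemB against B2 in control mice, and all KI against control points in B2 lie within the fold limit.

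Cd38, Cd24a and Cd1d1 gave no call in any of the 6 comparisons. Cd38 (ENSMUSG00000029084, GRCm39 chr5:44025875-44069717, plus strand) was at 286.8 ± 40.1 CPM in control and 243.3 ± 23.8 in KI B2, and at 241.4 ± 72.2 in control and 228.3 ± 29.4 in KI MemB (SD, n = 3), and all 12 libraries lay between 182.3 and 325 CPM. Its log2 fold change of MemB against B2 was -0.17, with a 95% interval from -0.51 to 0.17, so a fall in MemB of the size found for Fcer2a lies outside the interval. Cd24a (ENSMUSG00000047139, GRCm39 chr10:43454280-43460264, plus strand), the most abundant of the 7, was at 631.8 ± 104, 577.9 ± 98.0, 623.1 ± 97.5 and 561.3 ± 131 CPM in the same order, between 457.7 and 715.5 in all libraries. For Cd24a the averaged log2 fold change was -0.03, with a 95% interval from -0.32 to 0.25. Thus the 4 groups of both genes overlapped, and neither order of groups exceeds the spread of replicates.

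Cd1d1 (ENSMUSG00000028076, GRCm39 chr3:86903132-86906770, minus strand) was low and variable. Control B2 had 10.9, 10.6 and 3.10 CPM, KI B2 25.1, 6.41 and 2.73, control MemB 5.54, 4.43 and 3.54, and KI MemB 13.6, 7.17 and 2.61. Replicate 3 was the lowest library in every group, and the groups overlapped. The averaged log2 fold change of MemB against B2 was -0.70 with a 95% interval from -2.23 to 0.82, too wide to place the gene on either side. Of its 50-base words 16.7% occur in Cd1d2, which was at 0.102 CPM or less in all 12 libraries.

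Cd93 (ENSMUSG00000027435, GRCm39 chr2:148270798-148285546, minus strand) is given in counts. Control B2 had 1, 3 and 3 counts, which is at or under the floor of 3 counts. KI B2 had 21, 97 and 0 counts, control MemB 24, 265 and 2, and KI MemB 1, 19 and 2. A few libraries in 3 of the groups therefore carried the transcript and the others of the same groups did not, so no fold change is given. It was not called in any comparison.

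The 7 genes can be read against the whole table. Between MemB and B2 over both genotypes, 2 of the 7 were called lower, Fcer2a and Cr2, and none higher, where 0.370% of all genes tested were called lower and 1.01% in either direction. The same 2 were the members whose MemB and B2 libraries did not overlap, as 1.26% of all genes did not. The median log2 fold change of the 7 was -0.70, and that of all genes tested was 0.02. In control mice, 2 were called lower where 0.106% of all genes were, and the same 2 did not overlap, beside 12.3% of all genes. In KI mice 1, Cd55, was called lower where 0.139% were, and 3 did not overlap, beside 14.8% of all genes.

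Between KI and control MemB edgeR called 0 of the 7, where 0.284% of all genes were called. At an unadjusted p below 0.05 there were 3 (11.1% of all genes), and DESeq2 called 1, Fcer2a, among the 479 genes it called here in all. The groups did not overlap for 3 of the 7, Fcer2a and Cr2 higher and Cd55 lower in KI, beside 12.1% of all genes. Between KI and control B2 edgeR called 0 of the 7 (0.00660% of all genes), 0 had an unadjusted p below 0.05 (5.74%), DESeq2 called 0, and none of the 7 was without overlap (10.2% of all genes). For the difference between the genotype effects edgeR and DESeq2 called 0 of 7 (0.0660% of all genes by edgeR), and 2, Fcer2a and the low Cd93, had an unadjusted p below 0.05 (8.49%). In bulk samples, fewer cells that express a gene and less RNA per cell cannot be told apart.

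Molecular partners of the 7 proteins were examined next. Of the 9 partners tested, edgeR and DESeq2 called 0 between MemB and B2 over both genotypes, and 4 had an unadjusted p below 0.05 by edgeR, as 12.9% of all genes had. Cd81, which encodes a membrane partner of CD21, had a log2 fold change of 0.55 in MemB against B2 (adjusted p = 0.223 by edgeR). Adam10, the protease that sheds CD23, had -0.28 (adjusted p = 0.76 by edgeR), Notch2, the receptor that acts through RBPJ, -0.19 (0.731), and B2m, the light chain of CD1d, 0.24 (0.342). Siglecg, a sialic acid-binding inhibitory receptor that recognizes CD24, was the exception in KI MemB. It was at 384.3, 233.3 and 413.5 CPM in control MemB and at 110.4, 202.5 and 172 CPM in KI MemB, and fell there by 1.09 on the log2 scale (SE 0.24, adjusted p = 0.0354 by edgeR). The call was lost without control MemB replicate 1 (adjusted p = 0.174) or replicate 3 (0.2) and without KI MemB replicate 1 (0.316) or replicate 3 (0.0963). It was also lost with the replicate block (0.057), in a fit of the 6 libraries compared (0.213) and with replicates 1 and 2 only (-0.97, 0.374), all by edgeR.

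The other genes of resting mature follicular B cells were lower in MemB in part. Of 15 tested, edgeR called 3 lower in MemB over both genotypes, beside 0.370% of all genes, and 0 higher. For 14 the log2 fold change was negative and the median was -0.55, while 51.2% of all genes had a positive one and their median was 0.02. Among the 3, Icosl, the ligand of the T cell receptor ICOS, fell by 1.82 (adjusted p = 5.4e-05) and Satb1, a chromatin organizer, by 1.37 (0.000752), both by edgeR. Between KI and control MemB, Icosl had the direction of Fcer2a and Cr2 without a call, with 1.07 (adjusted p = 0.306 by edgeR) and 3 of 3 KI libraries higher. Fcmr, the receptor for IgM, had the direction of Cd55 and fell by 1.16 (adjusted p = 0.0263 by edgeR), a call lost without control MemB replicate 1 (0.174) or 2 (0.0664) and without KI MemB replicate 1 (0.235) or 2 (0.107), and in a fit of the 6 libraries compared (0.15). Tnfrsf13c, the BAFF receptor, rose by 1.03 (adjusted p = 0.00677 by edgeR), and lost its call without control MemB replicate 2 (0.91, 0.0831) or KI MemB replicate 1 (0.845, 0.107) and in a fit of the 6 libraries compared (1.03, 0.0564). Tnfrsf13c was also higher in KI B2 (678.4 to 810.8 CPM) than in control B2 (411.6 to 507.7), without a call by edgeR. Of the 15 genes, edgeR called 1 higher and 2 lower in KI than in control MemB, beside 0.284% of all genes. The log2 fold change was positive for 7 and negative for 8, with a median of -0.14. Follicular genes thus went both ways in KI MemB.

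Genes whose profile over the 12 libraries lay nearest to that of a member were found by the root-mean-square difference of centred log2 CPM, as a description. For Fcer2a, whose own SD was 1.14, the nearest were Ranbp6 (0.457), Icosl (0.517) and Cyp20a1 (0.529), the last of which shares 31 words of 50 bases with Fcer2a. For Cr2 (own SD 0.788) they were Brwd1 (0.341), Gpr174 (0.39) and Gpr171 (0.398). For Cd55 (own SD 0.536) they were Fcmr (0.235), Cacna1i (0.258) and Mettl4 (0.296). For Cd1d1 (own SD 1.01) they were Dcaf17 (0.433), Carmil1 (0.61) and Lman2l (0.648). Those of Cd93, Ranbp3l (0.894), Cntn2 (0.983) and Nrg4 (1.02), all had mean levels of 2.41 CPM or less. Cd38 (own SD 0.259) and Cd24a (own SD 0.239) varied too little for this measure.

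Markers of other B cells and of other cells moved with some groups. Of 12 pan-B cell genes, edgeR and DESeq2 called 0 between MemB and B2 over both genotypes (2 with an unadjusted p below 0.05 by edgeR, beside 12.9% of all genes), with sums of 5430 to 6345 CPM over all libraries. Of 13 memory B cell genes, 4 were called higher in MemB, beside 0.640% of all genes, and 0 lower, among them Cd80 (log2 fold change 2.53, adjusted p = 1.35e-05 by edgeR). Of 10 B-1 cell genes tested, 3 were called higher in MemB, beside the same 0.640%, among them Spn (2.10, adjusted p = 5.37e-05) and Bhlhe41 (1.89, 1.01e-08), both by edgeR. The 12 listed B-1 genes summed to 778.9 to 900.5 CPM in control MemB, 559.3 to 685.8 in KI MemB and 174.7 to 315.6 in B2. B-1 cells carry little CD23 and CD21, and the part of B-1 cells in the lower Fcer2a and Cr2 of MemB was not tested. Between KI and control MemB, edgeR called 1 of 10 T and NK cell genes tested, lower in KI, beside 0.205% of all genes, and DESeq2 called 4, of 479 in all. The 12 T and NK cell genes summed to 128.7 to 197.3 CPM in control MemB, 18.6 to 62.3 in KI MemB and 29.5 to 84.7 in B2, with 2 or fewer of them at 0 in a library. Mast cell genes, 7 in the table, summed to 45.1 and 255.8 CPM in control MemB replicates 1 and 3, 79.2 in KI B2 replicate 3, and 2.86 or less elsewhere, so the library with most Cd93, control MemB replicate 2 (1.55), was not among them. Macrophage genes, 14 in all, summed to 50.7 to 134.5 CPM, with 7 to 9 at 0 in each library and C1qa at 0 in all. These sums include Itgam, which the list of B-1 cells also holds. Itgam was at 24.3 to 95.6 CPM in control MemB and 44.6 to 99.0 in KI MemB. In B2 it was at 13.6 to 31.6 in control and 11.35 to 51.35 in KI mice. Of 10 stromal and endothelial genes, 8 or 9 were at 0 in each library. The part of these cells in the differences between KI and control MemB was not tested.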

How the data were processed

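RNAseq was analysed from 12 libraries of sorted PerC B2 and MemB, 3 for each genotype and cell type. Per the submitters' processing notes and methods, reads of 50 bases at both ends were checked with FastQC 0.12.1, trimmed with cutadapt 4.5, aligned to mm39 with STAR 2.7.11a and counted with RSEM 1.3.3. The table deposited by the authors holds expected counts of RSEM, not normalized. They were rounded, since 32.2% of those above 0 were fractional. The annotation and strand setting are not given in the sources used here. RSEM shares reads between similar genes, which makes counts of near copies and overlapping genes uncertain. The 813 entries without a gene symbol (0.605% to 0.689% of counts) were tested but not named.

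edgeR 4.0.16 (R 4.3.3) was run after filterByExpr (minimum count 10) and TMM normalization, with robust quasi-likelihood tests in a single model of 4 group means, with Benjamini-Hochberg adjustment over all 15148 genes tested. Replicates varied widely (common biological coefficient of variation 91.4%). DESeq2 1.42.0 was an alternative, as were other scalings, filters, blocks and left-out libraries. The authors' own analysis used DESeq2, with the same limits on adjusted p and log2 fold change. The steps were tested on simulated data. SE is the size of the log2 fold change divided by the square root of the F statistic. Reads were amplified and carry no molecular identifiers, so counts give counting error alone, and 3 counts were taken as the floor.

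The 7 members and the 13 lists were chosen with earlier results of these data known. Named beyond the 7 were Gpr34, Ighd, Ighm, partners or near copies of the 7, up to 4 DEGs of each list in a comparison, and the 3 genes of nearest profile. Xist was named after its values were seen, and so were genes that only DESeq2 called and Icosl and C1qa where they were not called. Coordinates follow GENCODE M39 (GRCm39), and shared sequence was counted in words of 50 bases. Results for some listed genes are not reported here.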

Additional observations from a re-analysis of the deposited data

Results flagged for a closer look

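The KI effect on Jchain, a plasma cell gene, differed between MemB and B2 by 4.43 on the log2 scale (SE 0.90, adjusted p = 0.0463 by edgeR), with a rise of 3.80 in KI MemB against control MemB (adjusted p = 0.00495 by edgeR) and -0.63 in B2 (adjusted p = 0.989 by edgeR). The difference was 2.94 to 5.14 with each library left out. The call on it was lost with 8 of the 12 libraries left out in turn, namely control B2 replicate 1 (2.94, adjusted p = 0.288 by edgeR), each KI B2 replicate, control MemB replicates 1 and 2, and KI MemB replicates 1 and 3. It was also lost with the replicate block (4.12, adjusted p = 0.0966 by edgeR), with replicates 1 and 2 only (0.0897) and without immunoglobulin, ribosomal and mitochondrial genes (0.0525). The rise in MemB lost its call without KI MemB replicate 3 (3.47, adjusted p = 0.0505 by edgeR).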

How the results depend on the processing

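Of 845 values of the 7 genes over 21 alternative settings, 792 kept their direction and side of the threshold, 14 lost a call, 7 gained a call and 32 changed sign without a call. With replicates 1 and 2 only, the log2 fold change of MemB against B2 was 0.0205 for Cd38 and 0.0207 for Cd24a over both genotypes, 0.1428 for Cd24a in control mice and 0.1043 for Cd38 in KI mice, and the Cr2 difference of effects was -0.0548. With each library left out, values spanned 0 for MemB against B2 of Cd24a over both genotypes (-0.1316 to 0.0351), in control mice (-0.1335 to 0.0964) and in KI mice (-0.243 to 0.092), and in KI mice also of Cd38 (-0.1541 to 0.0117) and Cd1d1 (-1.2137 to 0.766). For KI against control they spanned 0 in MemB for Cd38 (-0.2448 to 0.1917) and in B2 for Fcer2a (-0.0154 to 0.1742), Cr2 (-0.0749 to 0.5848), Cd55 (-0.2511 to 0.2184) and Cd1d1 (-0.8354 to 0.9427). The differences of effects did so for Cd38 (-0.0077 to 0.4158), Cd1d1 (-0.3534 to 1.6272) and Cd24a (-0.2227 to 0.1141).

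Of the 7 genes, edgeR called 1 between KI and control MemB without the filter on low counts, as did DESeq2. For MemB against B2 in KI mice, 2 were called without that filter, by DESeq2 and with genotype and number as a block, and 0 to 2 with a library left out. In control mice the count was 1 in a fit of the 6 libraries alone and with replicates 1 and 2 only, and 1 to 2 with a library left out. Over both genotypes it was 1 with replicates 1 and 2 only.

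Over all genes, in the order MemB against B2, KI against control in MemB, the same in B2, the difference of effects, MemB against B2 in control mice and in KI mice, edgeR called 153, 43, 1, 10, 40 and 55 DEGs. Without the filter it called 236, 90, 8, 44, 96 and 105, and DESeq2 called 583, 479, 42, 209, 398 and 396. With replicates 1 and 2 only there were 88, 24, 2, 10, 18 and 30. With a library left out the counts were 104 to 157, 15 to 50, 1 to 2, 5 to 10, 19 to 42 and 27 to 60, and the lowest were those without KI MemB replicate 1 (15), control B2 replicate 2 (5), control B2 replicate 1 (19) and KI B2 replicate 2 (27). The difference of effects had 3 without immunoglobulin, ribosomal and mitochondrial genes, and KI against control MemB had 15 in a fit of its 6 libraries. The cause of these shifts was not tested. Leaving out entries without a symbol, chosen after seeing the data, changed no call of the 7 genes.

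The labels do not say that a number marks a shared mouse, litter or day, so the samples were not treated as paired. The correlations of deviations between same-numbered libraries were -0.0139 to 0.0344 over 12 pairs. They cannot decide whether libraries are paired. Replicate 3 of every group shares its sex, and its correlations were still only 0.000996 to 0.0126. With the replicate number as a block, Fcer2a had a log2 fold change of -1.78 in MemB against B2 and 1.16 in KI against control MemB (adjusted p = 0.15 by edgeR), the difference of effects had 6 DEGs, and no call of the 7 genes changed.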

Other observations

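Of 8 immature and transitional B cell genes tested, the stage that Cd93 and Cd24a mark, edgeR called 1 higher in MemB than in B2 over both genotypes, Spn, which the list of B-1 cells also holds, beside 0.640% of all genes. Between KI and control MemB, edgeR called 1 of these 8 lower in KI, Myb, beside 0.205% of all genes. That call was lost without control MemB replicate 1 (adjusted p = 0.0756 by edgeR) or KI MemB replicate 3 (0.0579), in a fit of the 6 libraries compared (0.0564) and with replicates 1 and 2 only (0.13). DESeq2, which called 479 genes in all, called 4 of the 8 lower, Rag1, Igll1, Sox4 and Myb, and 0 higher. Of 10 marginal zone B cell genes tested, edgeR and DESeq2 called 0 between MemB and B2 over both genotypes (5 with an unadjusted p below 0.05 by edgeR, beside 12.9% of all genes). DESeq2 called 1 lower in KI than in control MemB, Cd9, of 479 genes in all, and in KI mice 2 between MemB and B2, Asb2 and Dtx1, of 396 in all. By edgeR 0 were called in both, and 3 in each had an unadjusted p below 0.05, beside 11.1% and 10.6% of all genes. Of 12 plasma cell genes, edgeR called 1 higher in MemB over both genotypes, Jchain, which links the chains of polymeric antibody, beside 0.640% of all genes, and DESeq2 called 3 higher, of 583 genes called in all. Jchain was at 72.1 to 196.4 CPM in the KI MemB libraries, with a mean of 140.2 ± 63.0 (SD, n = 3), and at 17.99 CPM or less in each of the others (control MemB 10.1 ± 6.86, B2 of control mice 4.95 ± 5.49 and of KI mice 3.20 ± 0.61). Between MemB and B2 its log2 fold change was 5.45 in KI mice (adjusted p = 3.48e-05 by edgeR) and 1.03 in control mice (adjusted p = 0.582 by edgeR). In control mice edgeR and DESeq2 called 0 of the 12 plasma cell genes, and 0 had an unadjusted p below 0.05 by edgeR.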
